A study of Mus musculus with 4 samples.

Results

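The genes described here are 10 antioxidant genes regarded as targets of the transcription factor NRF2: Srxn1, Nqo1, Hmox1, Gclm, Gclc, Txnrd1, Prdx1, Slc7a11, G6pdx and Gsr. They were picked by symbol from the 30282 genes of the deposited table because Srxn1 was among the largest rises and Nqo1 rose too, so the values of these genes in the same comparison are given as a description and without p-values. All 10 were found and all 10 passed the filter on low values. The cells were V6.5 mouse embryonic stem cells in which RPB3, a core subunit of RNA polymerase II encoded by Polr2c, carries a minimal auxin-inducible degron with GFP. The IAA group (2 libraries) received 1 µg/ml doxycycline for 12 h, which induces the auxin receptor protein TIR1, and then 500 µM of the auxin IAA for 12 h, per the sample labels. The untreated group (2 libraries) received the doxycycline alone. Another sentence of the protocol names a depletion of 1 h, and the difference is unresolved. Both groups grew with 15% serum, the GSK3 inhibitor CHIR99021 (3 µM), the MEK inhibitor PD0325901 (0.5 µM) and 143 µM 2-mercaptoethanol, a thiol that helps cultured cells take up cystine. IAA on cells without the degron was not analysed here. Whether the degron line is a single clone is not given in the sources used here.

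NRF2, encoded by Nfe2l2, is normally held at a low level by KEAP1, an adaptor that presents it to a CUL3 and RBX1 ubiquitin ligase. Oxidants and electrophiles modify cysteines of KEAP1, and NRF2 then accumulates and binds antioxidant response elements (AREs) together with small MAF proteins. BACH1 can occupy the same elements as a repressor. The targets rebuild glutathione, reduce thioredoxin and peroxiredoxins, supply NADPH and break down haem and quinones.

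Known NRF2 targets are expected to lie near ARE letters, so the promoter sequences are given as a description. RefSeq windows on GRCm38.p6, from 250 bases before to 50 after the annotated start, were given for 7 of the 10 genes, in 9 windows because Txnrd1 has 3 starts. The ARE core TGACNNNGC, searched on both strands, was present in 5 of the 9 windows, in Srxn1, Gclm, Prdx1, G6pdx and 1 start of Txnrd1, against 12.4% of all 32851 windows. The AP-1 site TGACTCA, which can overlap the ARE core, was in 2 of the 9 windows, those of Srxn1 and Prdx1, against 5.2% of all windows. The aryl hydrocarbon receptor core GCGTG was in 6 of the 9 windows against 32.4% of all windows. These were the windows of 4 of the 7 genes, Srxn1, Gclm, G6pdx and all 3 starts of Txnrd1. A match is only a match of letters. The windows of Srxn1, Prdx1 and Nqo1 are shown in full. Srxn1 changed most of the 10 genes, Prdx1 was the one called lower, and Nqo1 was called higher with none of the searched letters in its window. Each reads 5′ to 3′ on the strand of its gene, and capitals mark the ARE core and the AP-1 site.
Srxn1 (chr2:152105274-152105573, plus strand): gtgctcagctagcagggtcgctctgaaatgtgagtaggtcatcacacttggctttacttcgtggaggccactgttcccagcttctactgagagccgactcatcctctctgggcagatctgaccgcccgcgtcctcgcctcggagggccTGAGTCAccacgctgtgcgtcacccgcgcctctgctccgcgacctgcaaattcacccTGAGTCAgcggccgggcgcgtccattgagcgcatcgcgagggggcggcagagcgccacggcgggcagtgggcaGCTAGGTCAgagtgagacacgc
Prdx1 (chr4:116685349-116685648, plus strand): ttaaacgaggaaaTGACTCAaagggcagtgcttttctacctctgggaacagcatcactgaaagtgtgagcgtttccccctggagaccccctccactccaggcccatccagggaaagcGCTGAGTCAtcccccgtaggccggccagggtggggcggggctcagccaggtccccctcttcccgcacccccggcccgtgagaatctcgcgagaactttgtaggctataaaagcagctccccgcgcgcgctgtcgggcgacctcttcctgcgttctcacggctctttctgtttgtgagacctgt
Nqo1 (chr8:107403156-107403455, minus strand): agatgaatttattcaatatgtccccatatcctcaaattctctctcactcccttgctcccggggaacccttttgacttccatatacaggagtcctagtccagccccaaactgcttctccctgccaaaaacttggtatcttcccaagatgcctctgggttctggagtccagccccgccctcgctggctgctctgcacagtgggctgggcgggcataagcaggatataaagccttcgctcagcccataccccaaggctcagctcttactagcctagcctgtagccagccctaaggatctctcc

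The Srxn1 window held both kinds of motif apart from each other, with AP-1 letters at 102 and 45 bases before the start and the ARE core at 28 bases after it. In Prdx1 1 of the 2 AP-1 sites overlapped the ARE core, and in Nqo1 and Slc7a11 neither was present. All 5 ARE cores lay on the strand opposite to the gene. They are set beside each other here, each read on the strand that carries the core, in capitals, with 6 bases on either side.
Srxn1 (chr2:152105552-152105560): tcactcTGACCTAGCtgccca
Gclm (chr3:122245423-122245431): gagagtTGACGGTGCgcccgg
Prdx1 (chr4:116685466-116685474): gggggaTGACTCAGCgctttc
Txnrd1 (chr10:82859114-82859122): tcagaaTGACAAAGCaaaaat
G6pdx (chrX:74428929-74428937): gtgcttTGACTGAGCtgaccc

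**Figure D1:**
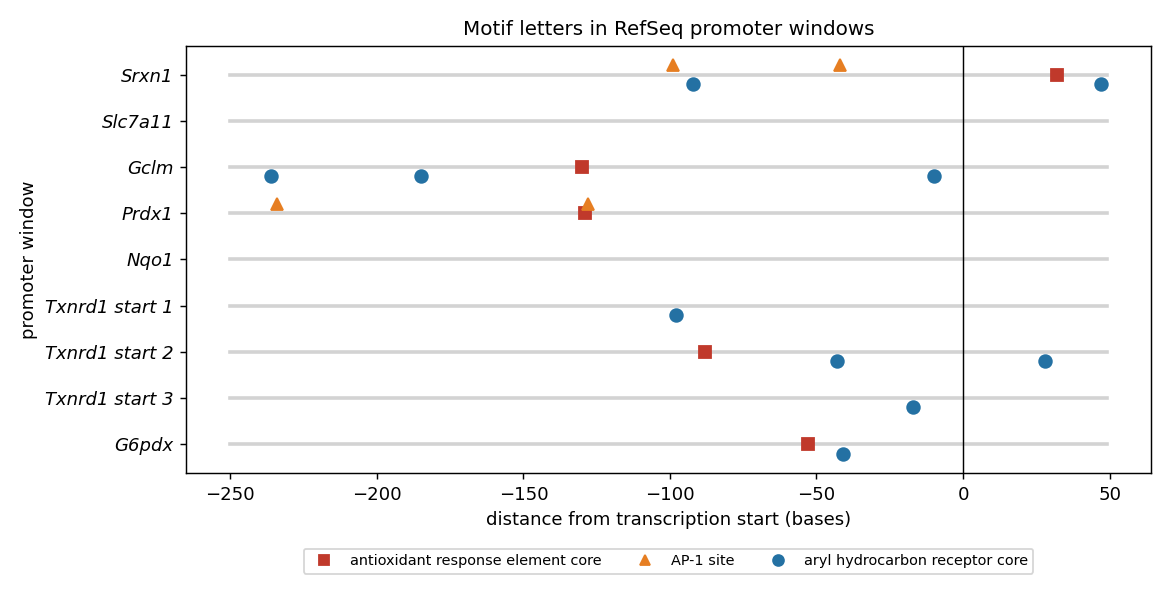
Positions of motif letters in the 9 RefSeq promoter windows of 7 NRF2 antioxidant targets; the x axis is the distance from the annotated start in bases, and the grey line is the window searched. Squares (ARE core) appear in 5 windows and triangles (AP-1 site) in 2, while the windows of Nqo1 and Slc7a11 are empty.

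Libraries of a group resembled each other, and the level of every gene was affected by the choice of scaling. Values below are normalised read counts, that is, reads divided by 1 factor per library, as the authors deposited them. Between 8724737 and 9194432 whole reads per library could be recovered from the table. Calls were made with limma on log2(value + 1), over the 14928 genes with a mean of at least 10, where the adjusted p lay under 0.05. With this rule 39.9% of genes were called, 11.1% higher and 28.9% lower in the IAA libraries, and the median log2 fold change of all tested genes was -0.11. Median-of-ratios factors raised the median of all genes by 0.10 on the log2 scale to -0.01, with 20.4% called higher and 20.4% lower, so that higher genes were 49.9% of calls in place of 27.7%. The p-values set the difference between groups against the spread of libraries within a group, which limma draws toward a trend over all genes. No label states that separate cultures were used, so that spread may be technical. Polr2c mRNA stood at 3242 and 3158 in the IAA libraries and at 2726 and 2885 in the untreated libraries (log2 fold change 0.19, SE 0.04, limma adjusted p = 0.00116, against 0.113 in the authors' deposited table). This mRNA says nothing of how much RPB3 protein remained. In bulk RNA a change in the share of some cells and a change per cell cannot be told apart.

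Of the 10 antioxidant genes, 6 were called higher and 1 lower in the IAA libraries and 3 were not called. That is 60.0% higher beside 11.1% of all genes, and nothing is read from the difference because the same comparison led to the choice of genes. Their median log2 fold change was 0.23, beside -0.11 for all genes tested. In 7 of the 10 genes the groups did not overlap, as was so for 68.1% of all genes tested. In the authors' deposited table, where 9 of the 10 have an adjusted p, 4 were higher (Srxn1, Gclc, Hmox1 and Nqo1) and 1 lower (Prdx1) at 0.05, beside 2.47% of genes higher and 9.57% lower. Gclm and Txnrd1 were not called there. With any 1 of the 4 libraries left out, 1 group held a lone library, and no gene of the table was called on the rounded values. Nothing is read about the 10 genes as a set from calls on unrounded values, which the last section gives beside those of all genes. Calls with a library left out are therefore given on unrounded values below, where limma gave every gene the variance of the trend.

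**Figure D2:**
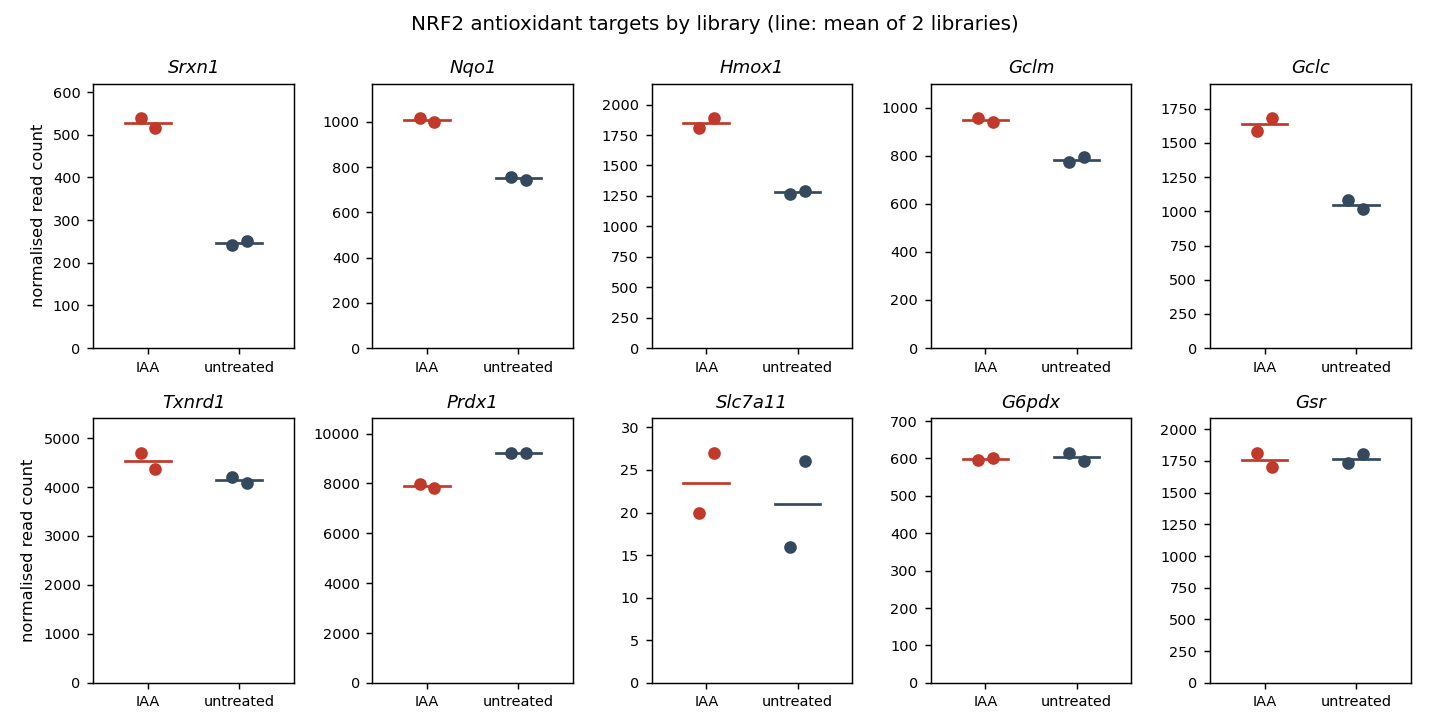
Normalised read counts (y axis, from 0) of the 10 NRF2 antioxidant targets in each library, with the IAA libraries on the left and the untreated libraries on the right of each panel; points are libraries and lines are means of 2. The groups are apart in 7 panels, with Prdx1 the only one of these in which the IAA libraries are below the untreated ones, and overlap for Slc7a11, G6pdx and Gsr.

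Of the genes that act on or encode peroxiredoxins among the 10, Srxn1 was called higher and Prdx1 lower, and Txnrd1 rose little. Srxn1 encodes sulfiredoxin, which uses ATP to rescue peroxiredoxins whose catalytic cysteine has been overoxidised. Srxn1 (ENSMUSG00000032802, chromosome 2, 152105516 to 152111376, GRCm38) had 539 and 517 normalised read counts in the IAA libraries, against 241 and 252 in the untreated libraries. Both IAA libraries lay far above both untreated ones. The mean was 528.0 ± 15.6 in IAA and 246.5 ± 7.78 in untreated cells (SD, n = 2 each), a log2 fold change of 1.10 (SE 0.08, 95% interval 0.93 to 1.27), or 2.14-fold. The change, which the choice of Srxn1 used, ranked 121 from the top among all 14928 tested genes and 8 among the 9724 with a mean of at least 100. In the authors' deposited table Srxn1 is the only gene of the 10 with the label up, which 14 genes (0.0462% of the table) carry and which coincides, in every row, with an adjusted p under 0.05 and a fold past 1 on the log2 scale. Among those 14 genes its fold ranks 13 from the top. Its deposited log2 fold change is 1.10 (SE 0.19).

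Prdx1 encodes an abundant cytosolic peroxiredoxin that sulfiredoxin repairs. Prdx1 (ENSMUSG00000028691, chromosome 4, 116685544 to 116700822) had 7968 and 7832 normalised read counts in the IAA libraries, against 9223 and 9228 in the untreated libraries. Both IAA libraries were lower, and the untreated ones were nearly equal. The log2 fold change was -0.22 (SE 0.03, 95% interval -0.29 to -0.16). It was called lower with median-of-ratios factors too, at -0.12, and its distance from the median of all genes at the deposited scaling was likewise -0.12. Transcripts of the pseudogenes Gm21399 and Gm7204 match Prdx1 over 597 bases at 98.3% and 97.5% identity. Their rows hold means of 26.3 and 4.99, so few reads were assigned to them. Per 100 reads of Prdx1 the libraries held 6.77 and 6.60 of Srxn1 with IAA, against 2.61 and 2.73 in untreated cells.

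Txnrd1 encodes cytosolic thioredoxin reductase, a selenoprotein that passes electrons from NADPH to thioredoxin and so to the peroxiredoxins. Txnrd1 (chromosome 10, 82833951 to 82897712) had 4697 and 4369 normalised read counts in the IAA libraries, against 4198 and 4089 in the untreated libraries. The groups did not overlap, but the gap between the nearest libraries was smaller than the gap between the IAA libraries. The log2 fold change was 0.13 (SE 0.04, 95% interval 0.05 to 0.21). Without IAA replicate 1 it was 0.08 and not called.

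Both subunits of the enzyme that limits glutathione synthesis were higher, the catalytic one by more. Gclc encodes the catalytic subunit of glutamate-cysteine ligase. Gclc (ENSMUSG00000032350, chromosome 9, 77754535 to 77794485) had 1590 and 1681 normalised read counts in the IAA libraries, against 1080 and 1015 in the untreated libraries. The groups were well apart, with a log2 fold change of 0.64 (SE 0.05, 95% interval 0.53 to 0.75). Gclm encodes the modifier subunit, which improves the kinetics of the enzyme. Gclm (ENSMUSG00000028124, chromosome 3, 122245557 to 122270732) had 956 and 938 in the IAA libraries, against 773 and 794 in the untreated libraries. These groups did not overlap either, and the log2 fold change was 0.27 (SE 0.06, 95% interval 0.15 to 0.39). Of the merged exon bases of Gclm, 4.71% overlap the opposite-strand gene Gm17494 and 3.88% the same-strand pseudogene Gm6061. The ratio of Gclc to Gclm, each per kilobase of exon, was 2.78 and 2.99 in the IAA libraries and 2.33 and 2.14 in the untreated libraries.

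The glutathione genes next to the ligase were not called. Gsr encodes glutathione reductase, which regenerates reduced glutathione with NADPH. Gsr (chromosome 8, 33652523 to 33698163) had 1814 and 1700 normalised read counts in the IAA libraries and 1733 and 1806 in the untreated libraries. The groups overlapped, and the log2 fold change was -0.01 (SE 0.05), with a 95% interval of -0.11 to 0.09 that leaves out changes the size of those of Gclc or Gclm. Slc7a11 encodes the light chain of the cystine and glutamate exchanger, which brings in cystine for glutathione. Slc7a11 (chromosome 3, 49892526 to 50443614) had 20 and 27 in the IAA libraries and 16 and 26 in the untreated libraries. At this depth its log2 fold change of 0.18 (SE 0.32) has a 95% interval of -0.50 to 0.86. That interval holds a rise as large as that of Gclc and also a smaller fall, so the depth cannot show which. A transcript of Slc7a11 also holds 373 bases that match the tubulin genes Tuba1a, Tuba1b and Tuba1c at 95.4% to 96.2% identity.

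The quinone and haem enzymes were both higher. Nqo1 encodes a quinone reductase that uses NAD(P)H and is a target of NRF2 and of the aryl hydrocarbon receptor. Nqo1 (ENSMUSG00000003849, chromosome 8, 107388225 to 107403206) had 1017 and 998 normalised read counts in the IAA libraries, against 757 and 745 in the untreated libraries. The libraries of each group lay close together and the groups were apart, with a log2 fold change of 0.42 (SE 0.06, 95% interval 0.30 to 0.54). Hmox1 encodes the inducible haem oxygenase, a gene known for repression by BACH1. Hmox1 (ENSMUSG00000005413, chromosome 8, 75093621 to 75100589) had 1812 and 1889 in the IAA libraries, against 1266 and 1294 in the untreated libraries. Its groups were apart as well, with a log2 fold change of 0.53 (SE 0.05, 95% interval 0.43 to 0.63).

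G6pdx encodes glucose-6-phosphate dehydrogenase, the entry of the pentose phosphate pathway and a main source of NADPH. G6pdx (chromosome X, 74409483 to 74429194) had 596 and 601 normalised read counts in the IAA libraries and 615 and 592 in the untreated libraries. The groups overlapped, and the log2 fold change was -0.01 (SE 0.07, 95% interval -0.15 to 0.13). Of its merged exon bases 13.6% overlap Ikbkg on the opposite strand, and the strand setting of the counting is not given in the sources used here.

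**Figure D3:**
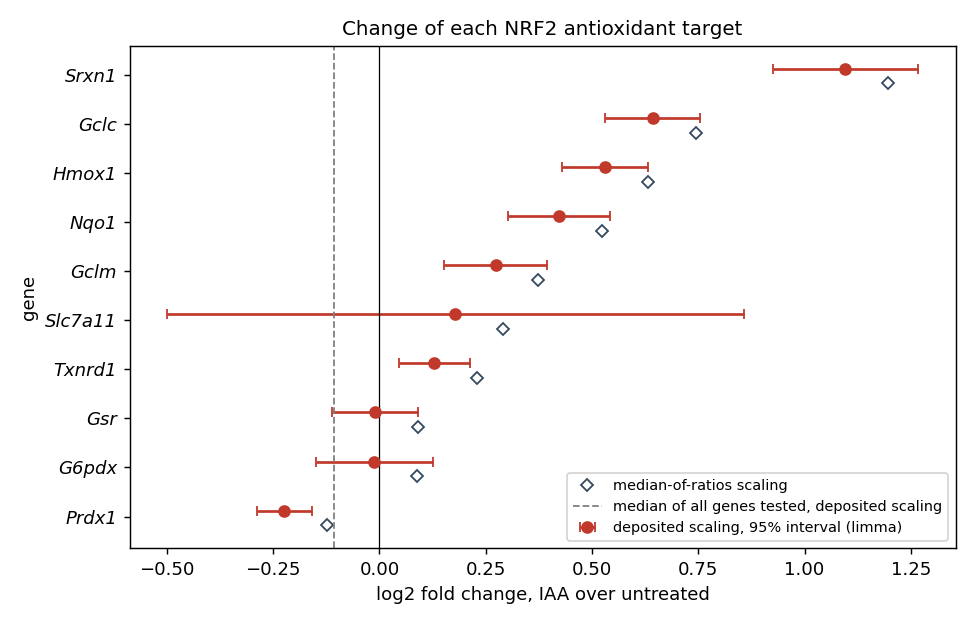
Log2 fold change of each NRF2 antioxidant target, IAA over untreated (x axis), at the deposited scaling with its 95% interval from limma (red) and with median-of-ratios factors (open diamonds); the dashed line is the median of all genes tested, -0.11. Srxn1 is at the top at 1.10, Prdx1 at the bottom at -0.22, and the diamonds of Gsr and G6pdx cross to the positive side of 0.

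Levels differed far more between these genes than between the groups. Per kilobase of merged exon, as mean normalised read counts in the IAA libraries, Prdx1 led with 2596, followed by Hmox1 with 1057, Nqo1 with 649, Txnrd1 with 640, Gsr with 638, Gclc with 434, G6pdx with 194, Srxn1 with 187, Gclm with 150.5 and Slc7a11 with 1.69. In untreated libraries the order was Prdx1 with 3032, Hmox1 with 731, Gsr with 642.5, Txnrd1 with 585, Nqo1 with 484, Gclc with 278, G6pdx with 196, Gclm with 124.5, Srxn1 with 87.4 and Slc7a11 with 1.51. Per kilobase Srxn1 stood below Gclm in untreated cells and above it with IAA. This crossing rests on the merged exon lengths of 2.82 and 6.291 kilobases, which need not be those of the transcripts expressed. Undivided mean counts of Srxn1 were below those of Gclm in both groups (246.5 against 783.5 untreated, 528.0 against 947.0 with IAA). With IAA the libraries of Nqo1, Txnrd1 and Gsr overlapped, so their order is not resolved, whereas in untreated cells Nqo1 lay below the other two in both libraries. Together the 10 genes summed to 2239 and 2224 CPM (recovered reads scaled to the library total) in the IAA libraries, against 2007 and 1963 in the untreated libraries. Without Prdx1 the remaining genes summed to 1390 and 1376.5 CPM with IAA, against 1076.9 and 1049.8 CPM in untreated cells. Library totals place the IAA libraries higher than the deposited scaling does, so part of both differences rests on the scaling.

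Several genes that control NRF2 were also higher at the mRNA level. Of 14 such genes tested, 7 were called higher and 4 lower, beside 11.1% of all genes higher and 28.9% lower, so the lower share is that of all genes. Median-of-ratios factors gave 8 and 3. Nfe2l2, the gene of NRF2 itself, had 1247 and 1304 normalised read counts in the IAA libraries, against 910 and 902 in the untreated libraries. Both IAA libraries were higher, with the log2 fold change being 0.49 (SE 0.05; limma adjusted p = 6.2e-07). Keap1 had 530 and 475 with IAA, against 408 and 416 in untreated cells, a difference of 0.28 on the log2 scale (SE 0.08, limma adjusted p = 0.00623). Without IAA replicate 1 this was 0.20 and no longer called (limma adjusted p = 0.115). Bach1 had 798 and 815 with IAA, against 682 and 687 in untreated cells, a difference of 0.24 on the log2 scale (SE 0.06, limma adjusted p = 0.00406). In the authors' deposited table Nfe2l2 was called (adjusted p = 0.000615) and Keap1 and Bach1 were not (adjusted p = 0.312 and 0.282).

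The partners and relatives of NRF2 went both ways. Mafg, a small MAF partner, rose by 0.43, Nfe2l1, a related factor of proteasome genes, by 0.33, and Sqstm1, an autophagy receptor that can bind KEAP1 and is itself an NRF2 target, by 0.31. All 3 were picked out once their values were known. Rbx1, the ring subunit of the CUL3 ligase, had 695 and 680 in the IAA libraries, against 988 and 1022 in the untreated libraries, a difference of -0.55 on the log2 scale (SE 0.06, limma adjusted p = 4.7e-07). Cul3 itself, also named after its values were seen, had 0.11 and was not called, but passed as higher under median-of-ratios scaling. Among low genes, Nfe2l3, a relative of Nfe2l2, had 28 in each IAA library against 73 and 87 in untreated cells (log2 fold change -1.48, SE 0.21). Bach2, a relative of Bach1, had 18 in each IAA library against 41 and 55 in untreated cells (log2 fold change -1.35, SE 0.27).

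No target of NRF2 on a list of further targets was called higher at the deposited scaling. Of 19 tested, 7 were lower, beside 28.9% of all genes, with a median of -0.25 beside -0.11 for all genes. With median-of-ratios factors 3 were higher (Cbr1, Cbr3 and Gsta4) and 6 lower, so the absence of higher genes depends on the scaling. Akr1b8, an aldo-keto reductase, had 135 and 148 normalised read counts in the IAA libraries, against 232 and 238 in the untreated libraries (log2 fold change -0.73, SE 0.11, limma adjusted p = 3.23e-05). Abcc1, an exporter of glutathione conjugates, had 759 and 806 with IAA, against 1156 and 1185 in untreated cells (log2 fold change -0.58, SE 0.06, limma adjusted p = 1.66e-07). These libraries did not overlap in either gene, and both genes were also lower in the authors' deposited table (adjusted p = 0.0416 and 7.2e-05). Ephx1, an epoxide hydrolase, had -0.35 and Gsta3, a glutathione transferase, -0.64. Neither was called in the authors' deposited table (adjusted p = 0.38 and 0.381). Both lost the call without 1 library: Ephx1 without untreated replicate 1 (-0.30, limma adjusted p = 0.0638), and Gsta3 without untreated replicate 2 (-0.40, limma adjusted p = 0.241) or without IAA replicate 1 (-0.49, limma adjusted p = 0.101).

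Most other enzymes of glutathione and thioredoxin were not called, and the shares called lay near those of all genes (11.1% higher, 28.9% lower, median -0.11). Glutathione enzymes had 1 of 20 higher and 5 lower (3 and 4 with median-of-ratios factors; median -0.11). The higher one was the peroxidase gene Gpx1 (0.21), named after its value was seen. The lower ones included Gpx7, a peroxidase of the endoplasmic reticulum (-0.50), Ggt1, which breaks down extracellular glutathione (-0.48), Hagh, of the glyoxalase pathway (-0.37), and the glutaredoxin Glrx2 (-0.36). Gpx7 lost the call without untreated replicate 1 or IAA replicate 2 (limma adjusted p = 0.0765 and 0.0748), and Glrx2 without untreated replicate 2 (0.0721). Thioredoxin and peroxiredoxin genes had 1 of 17 higher and 6 lower (1 and 4 with median-of-ratios factors; median -0.12). Txnrd3, a reductase of the Txnrd1 family, had 89 and 114 in the IAA libraries, against 184 and 186 in the untreated libraries, a difference of -0.87 on the log2 scale (SE 0.14, limma adjusted p = 4.55e-05). Txnip, which binds thioredoxin, had -0.28, the mitochondrial Txn2 -0.24 and the selenoprotein gene Msrb1 -0.29. Msrb1 lost the call with median-of-ratios factors and without untreated replicate 2 (limma adjusted p = 0.0676) or IAA replicate 1 (0.143). Prdx2, named after its value was seen, fell by 0.23, close to Prdx1. Txn1, the gene of the thioredoxin that reduces peroxiredoxins, was called lower at -0.15, but not with median-of-ratios factors. It too was named after its value was seen. The only higher gene was Sesn2 (0.14), also named after its value was seen, which lost the call without untreated replicate 2 or IAA replicate 1 (limma adjusted p = 0.156 and 0.407).

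NADPH supply genes included more lower than higher calls around an uncalled G6pdx. Of 14 tested, 8 fell and 1 rose, and 7 and 1 did so under median-of-ratios scaling. The median was -0.25, beside -0.11 for all genes, of which 28.9% were lower. Idh2, the mitochondrial NADP-dependent isocitrate dehydrogenase, had 1393 and 1345 normalised read counts in the IAA libraries, against 2065 and 2011 in the untreated libraries, a difference of -0.57 on the log2 scale (SE 0.05, limma adjusted p = 1.78e-08). Its cytosolic counterpart Idh1 had -0.43. In the pentose phosphate pathway Pgls had -0.35, Taldo1 -0.35 and Tkt -0.25, whereas Pgd, the second NADPH-forming step, was the higher gene at 0.22. Tkt and Pgd were picked out with their values known.

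In the remaining lists lower calls outnumbered higher ones, as they did over all genes (28.9% lower, 11.1% higher). Superoxide and peroxide enzymes had 3 of 6 lower and none higher (median -0.14; under median-of-ratios scaling 2 fell and 1 rose), namely Park7 (-0.41), the copper chaperone gene Ccs (-0.33) and Sod1 (-0.18). Sod1 was not called with median-of-ratios factors. Without untreated replicate 2 Ccs and Sod1 were not called (limma adjusted p = 0.0758 and 0.108), nor was Ccs without IAA replicate 2 (0.073). Haem and iron genes had 5 of 19 lower, a share no larger than that of all genes, and none higher (median -0.02; under median-of-ratios scaling 2 fell and 1 rose). They included the haem synthesis genes Ppox (-0.24) and Urod (-0.19) and the biliverdin reductase gene Blvrb (-0.30). Ppox, Urod and Blvrb lost the call without untreated replicate 2, at limma adjusted p = 0.341, 0.109 and 0.0625, and Urod also without any other library. Neither Ppox nor Urod was called with median-of-ratios factors. Ppox also lost it without IAA replicate 2 (limma adjusted p = 0.28). The ferritin genes Ftl1 (-0.04) and Fth1 (-0.05), known NRF2 targets also picked out with values known, were not called, and their sign turns with median-of-ratios factors. Genes of cystine supply and the stress factor ATF4 had 7 of 14 lower and 2 higher (median -0.16; under median-of-ratios scaling 6 fell and 4 rose). The lower ones were led by the transsulphuration genes Cbs (-1.24) and Cth (-0.48), which make cysteine from homocysteine, and by Asns (-0.43) and the amino acid carrier gene Slc1a4 (-0.34). Slc3a2, the heavy chain that pairs with Slc7a11, had 3916 and 3915 in the IAA libraries, against 4797 and 4572 in the untreated libraries (-0.26). It was named after its values were seen, as were the higher genes Trib3 (0.32) and Slc7a1 (0.17). Slc7a1 lost the call without IAA replicate 1 (limma adjusted p = 0.0867).

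**Figure D4:**
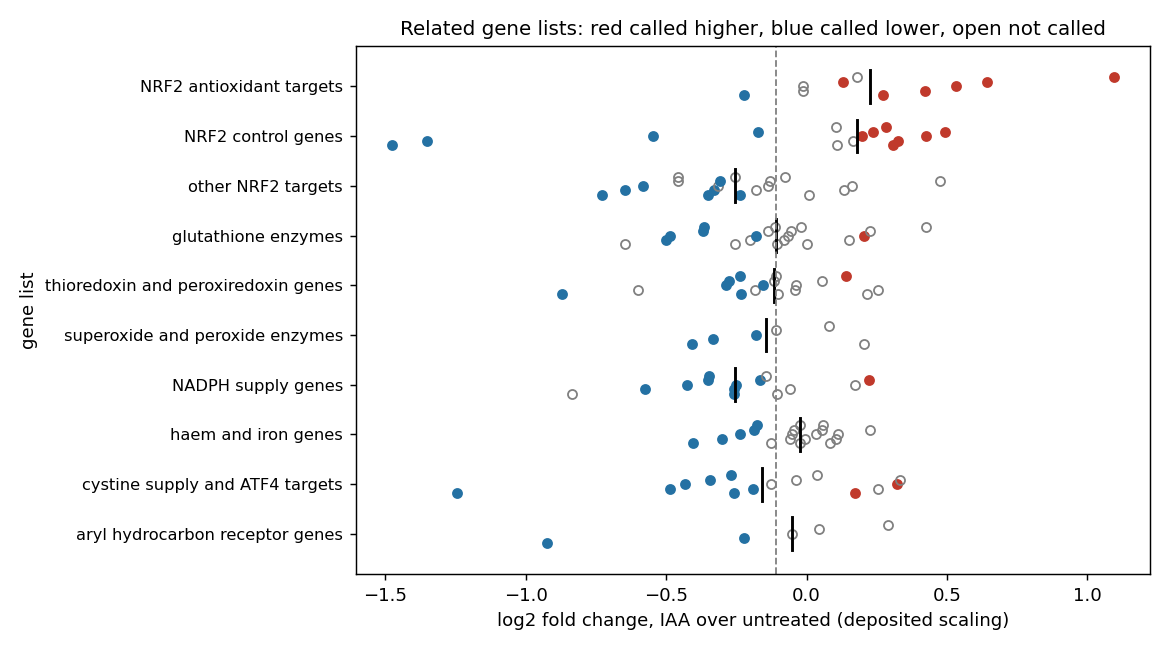
Log2 fold change, IAA over untreated (x axis), of each tested gene in the 10 NRF2 antioxidant targets and 9 related lists; filled red points were called higher, filled blue lower and open points not called in limma, black bars are list medians and the dashed line is the median of all genes tested, -0.11. The targets at 0.23 and the NRF2 control genes at 0.18 have medians above 0, and the other lists lie between -0.25 and -0.02.

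Nqo1 also belongs to the genes of the aryl hydrocarbon receptor, a factor that induces enzymes of foreign compound metabolism. Of 5 receptor genes tested besides Nqo1, none was called higher and 2 were lower, Aldh3a1 and the receptor's partner gene Arnt (-0.22), also with median-of-ratios factors. Over all genes 11.1% were higher and 28.9% lower, and nothing is read from so few receptor genes. Aldh3a1 had 39 and 32 normalised read counts in the IAA libraries, against 81 and 57 in the untreated libraries (log2 fold change -0.92, SE 0.22, limma adjusted p = 0.00256). Without untreated replicate 1 it was -0.70 and not called (limma adjusted p = 0.0506). The authors' deposited table calls neither Aldh3a1 (adjusted p = 0.2) nor Arnt (adjusted p = 0.114). Cyp1a1, the classic receptor target, had 8 and 8 counts with IAA, against 3 and 8 in untreated cells, and was too low to test.

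The genes nearest to Srxn1 and to Nqo1 were found by the Euclidean distance between centred log2(value + 1) profiles over the 4 libraries, among 9415 genes with a mean of at least 100. The nearest to Srxn1 were the zinc finger genes Zfp977 (distance 0.04) and Zfp386 (0.04), the lipid carrier gene Mfsd2b (0.10), the ribonuclease P subunit gene Rpp25 (0.14) and the linker histone gene H1f0 (0.15). Rpp25 had 1407 and 1313 in the IAA libraries, against 685 and 714 in the untreated libraries. The nearest to Nqo1 were Setdb2 (0.01), Sp2 (0.01), Zfp626 (0.02), Baz2b (0.02) and Zfp142 (0.03), which encode nuclear proteins. Sp2 had 804 and 779 in the IAA libraries, against 594 and 584 in the untreated libraries. None of the 10 neighbours was on the lists of antioxidant genes. With 4 libraries in 2 groups, a small distance stands for a similar fold.

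The stem cell label fitted the markers. The 10 embryonic stem cell markers were all well above the filter and summed to 7097 and 6938 CPM in the IAA libraries, against 6363 and 6379 in the untreated libraries. CPM rests on library totals, which place the IAA libraries higher than the deposited scaling does. No rise of this sum is therefore read from it, and the same limit holds for the marker sums below. The stem cell markers moved unevenly, with 4 higher, among them Klf4 (0.52) and Nanog (0.33), and 4 lower, among them Dppa5a (-0.36) and Tdgf1 (-0.27). Beside these calls and those of the markers below, 11.1% of all genes were higher and 28.9% lower. Of 10 fibroblast markers 5 were not analysed here. The other 5 summed to 37.1 and 38.7 CPM with IAA, against 42.9 and 48.9 in untreated cells, with Thy1 (-0.78) and Col1a1 (-0.76) called lower among 3 tested and Col3a1 at 0 to 2 counts. Not all were near 0: Thy1 had 84 to 167 counts, and Pdgfrb, named after its values were seen, 223 to 253. Col1a1 was not called without untreated replicate 2 (-0.41, limma adjusted p = 0.353). The 10 lineage markers summed to 58.0 and 58.9 CPM with IAA, against 48.7 and 49.1 in untreated cells, with Eomes (0.29) the only call among 6 tested and Foxa2 and Cdx2 at 0 or 1. Other lineage markers were well above 0. Eomes had 176 to 228 counts, and Sox1 and Gata4, named after their values were seen, 117 to 146 and 113 to 137. Eomes was not called without untreated replicate 1, IAA replicate 1 or IAA replicate 2 (limma adjusted p = 0.14, 0.194 and 0.0656). Some single markers differed between the groups, and the part of the markers in the results above was not tested.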

How the data were processed

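Poly(A) RNA libraries from 4 samples, 2 IAA and 2 untreated, were analysed from 1 deposited table of 30282 genes; groups and replicate numbers come from the titles. Per the submitters' processing notes, the tools were DESeq2, featureCounts, STAR, Bowtie2, deepTools, SAMtools and cutadapt 1.18 and the builds dm6 and mm10, with no role stated. In each library column the authors deposited a score, a read number over a library-wide size factor, rounded to a whole number, and the deposited mean column is an unrounded signal, as worked out from the values. The factors were 0.98 and 0.95 for the IAA and 0.88 and 0.87 for the untreated libraries; whether they rest on the Drosophila spike-in is not stated. Whole reads were recovered for 100% of genes (tolerance 0.001 on the mean), 8724737 to 9194432 per library. Log2 fold changes, their errors, p-values and adjusted p-values in the table were deposited by the authors and are named as theirs.

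Genes with a mean of at least 10 (14928 of 30282) were tested on log2(value + 1), which understates changes of low genes, with limma 3.58.1 in R 4.3.3 (empirical Bayes trend, two-sided, Benjamini-Hochberg over all tested genes, called under 0.05). The design foresaw edgeR's quasi-likelihood test only for raw counts, which the columns are not. On simulated data (14958 genes run), 89.7% of 97 genes changed by 1 and 52.5% of 99 changed by 0.5 on the log2 scale were called. The spread between simulated libraries was a set value, not estimated from these data. Far fewer genes changed there than the 39.9% called in the data, which alters the adjusted p. These rates are therefore not the power of this comparison. Coordinates and merged exons were taken from GENCODE M21 (GRCm38, or mm10), to which 30214 of 30282 IDs matched. Copies were sought with BLAST 2.17.0 among its transcripts (at least 95% identity over 300 bases). Promoters are from RefSeq (GRCm38.p6).

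The genes, lists and tests were chosen with earlier results of these data known. Besides the 10 genes and Nfe2l2, Keap1, Bach1, Polr2c and Aldh3a1, each list names its 4 called genes with the largest change (or, with none called, the 2 of highest mean), and the 5 nearest profiles to Srxn1 and Nqo1 leave out predicted genes and pseudogenes. A gene that this rule names is not reported here. Other genes are said to be named after their values were seen, apart from Cbr1, Cbr3, Gsta4, Cyp1a1, Foxa2, Cdx2 and Col3a1, which were named likewise. Libraries were not paired by replicate number.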

Additional observations from a re-analysis of the deposited data

How the results depend on the processing

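The counts of 6 higher and 1 lower among the 10 antioxidant genes stayed within 1.5 times under the alternatives run on all 4 libraries: pseudocounts of 0.5 and 5, other filters, median-of-ratios factors, library totals, adjusted p of 0.01, voom on recovered reads, unrounded values and the authors' deposited test. They came to 4 higher with no filter and in the authors' deposited test, where Gclm and Txnrd1 were not called, and to 5 at an adjusted p of 0.01. The ranges that follow cover all 21 settings, including those with 1 library left out. Log2 fold changes ranged from 1.06 to 1.20 for Srxn1, 0.60 to 0.75 for Gclc, 0.50 to 0.64 for Hmox1, 0.41 to 0.53 for Nqo1, 0.25 to 0.38 for Gclm and -0.24 to -0.12 for Prdx1. Txnrd1 ranged from 0.08 to 0.23.

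Over all genes the counts moved from 1650 higher and 4312 lower to 179 and 638 with no filter, 284 and 1100 in the authors' deposited test, 3038 higher with median-of-ratios factors, 3082 higher with library totals and 1037 higher at an adjusted p of 0.01. Over the 9 related lists the 12 higher and 47 lower became 2 and 11 with no filter, 4 and 17 in the authors' deposited test, and 22 higher with median-of-ratios factors or with library totals. The cause was not tested. With no filter 7873 of 30282 genes had an unadjusted limma p under 0.05, against 7165 of 14928 with the filter. Whether the larger number of genes tested accounts for the fewer calls was not tested either. The sign turned only for genes that were not called: G6pdx, Gsr, Fth1 and Ftl1 near 0, and Slc7a11 at 0.18 (SE 0.32). With median-of-ratios factors and library totals, in this order, G6pdx was 0.089 and 0.093, Gsr 0.0903 and 0.094, Fth1 0.049 and 0.053, and Ftl1 0.057 and 0.061. With 1 library left out, G6pdx lay between -0.039 and 0.016, Gsr between -0.058 and 0.036, Slc7a11 between -0.16 and 0.51, and Ftl1 between -0.13 and 0.041. On unrounded values the turned signs were 0.016 for G6pdx without untreated replicate 1, 0.019 and 0.0365 for Gsr without untreated replicate 2 and IAA replicate 2, -0.15 and -0.0088 for Slc7a11 without untreated replicate 1 and IAA replicate 2, and 0.041 for Ftl1 without IAA replicate 2.

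Without each library in turn, limma on the rounded values called 0 genes of all, 0 of the 10 and 0 of the lists in every case, with 4738 to 5080 genes at an unadjusted p under 0.05. The prior degrees of freedom were 1.56 to 1.57 there and infinite on unrounded values, where every gene takes the variance of the trend and its own spread is not used. Unrounded values, added after seeing the data, gave 1143 to 1620 higher and 3484 to 3940 lower, 5 to 6 and 1 of the 10 genes, and 8 to 13 and 37 to 46 in the lists. There the lone library of a group is taken to vary as much as the other 2. The replicate block gave 1647 higher and 4311 lower of all genes, 6 and 1 of the 10, and 12 and 46 in the lists, and of the genes named only Urod lost its call. Differences between replicates 1 and 2 in the 2 groups had a correlation of -0.07 across 9727 genes. That gives no sign of pairing by number but cannot exclude it, because libraries of a group differed little. A crossed replicate block, added after seeing the data, gave 1639 and 4284. Depth limits Slc7a11, at 14 to 26 recovered reads per library.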
